A study of Drosophila melanogaster with 14 samples.

Results

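The 52 genes described here encode translation factors and tRNA synthetases, and were chosen by symbol from the 7624 genes of the authors' table. The symbols began with eIF, Eif, Ef1, Ef2, eEF, eRF or Aats-. No measured value entered this rule, but earlier results of these data were known when it was set. The 52 genes comprised 24 initiation factors, 7 elongation factors (eIF-5A counted with them), the termination factor eRF1 and 20 tRNA synthetases. The genes most clearly changed were eIF5B, whose total RNA was about doubled in every treated group and passed the test in 2 of them, and eIF-4E, which rose in 1. Among the 52, no elongation factor and no synthetase passed the test in total RNA, where at most 3.88% of all listed genes passed in any group. A synthetase gene outside the 52, CG5706, did so with Ph.

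Protein synthesis starts when the cap-binding complex of eIF4E, eIF4G and the helicase eIF4A, together with eIF3, brings the small ribosomal subunit to an mRNA. The GTPase eIF2 supplies the initiator tRNA and is recharged by its exchange factor eIF2B, and eIF5B joins the large subunit. The elongation factor eEF1A then delivers each aminoacyl-tRNA, its exchange subunits recharge it with GTP, eEF2 moves the ribosome along, and eRF1 reads stop codons. Aminoacyl-tRNA synthetases load each tRNA with its amino acid, with partly separate enzymes for the cytosol and the mitochondria.

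Total RNA was measured in ML-DmBG3-c2 (BG3) cells, a Drosophila line of larval nervous tissue, in which RNA interference was aimed at subunits of Polycomb Repressive Complex 1, a silencer of developmental genes. The labels give 6 mock-treated libraries (Mock), 3 treated against Ph (Polyhomeotic), 3 against Sce (Sex combs extra) and 2 against Pc (Polycomb). All came from cells grown in serum and insulin, and the treated cells received double-stranded RNA in the medium, usually a pair of fragments per target. The labels do not say whether libraries came from separate cultures, so the p-values measure a spread that may be technical.

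Per group the table listed a mean signal and, relative to Mock, a ratio with its p and q, but no values of single libraries. No SD or interval therefore stands beside any mean, and the depth of the libraries is unknown. The verbs rose and fell are kept for genes with an authors' q-value under 0.05. The comparisons with Mock share the same Mock libraries and are set side by side without being treated as independent. A second set of ratios, marked nt.gene in the header, compared Ph and Sce with Mock. What it measured is stated in neither labels nor header.

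Each targeted gene stood above Mock in its own group, by a ratio of means of 8.64 for ph-p and 8.09 for ph-d with Ph, 27.0 for Sce and 21.5 for Pc, and reads from the added RNA could not be told apart from those of the gene. Depletion could therefore not be read from this signal. The groups are called labelled Ph, Sce and Pc, with every direction that of the labelled group. Of 6 fixed glial genes 5 were listed, and their summed signal ran from 333813 in Mock to 600720 with Ph. With Ph, repo stood at 54.0 of Mock, nrv2 at 2.10, loco at 1.41, wrapper at 1.20 and moody at 0.774. Of 7 neural precursor genes 4 were listed (7583 in Mock to 86082 with Ph). Of 6 neuron genes only elav and Ace were listed, with sums between 16279 and 22586, mostly from elav. Ace had the low means of 61.4 in Mock, 1391 with Ph, 5.99 with Sce and 87.4 with Pc. Of 6 hemocyte genes 4 were listed, with sums of 1233108 (Ph), 1692269 (Mock), 2386960 (Sce) and 3443057 (Pc), mostly from the collagen gene Cg25C. With Pc Cg25C stood at 2.16 of Mock, while srp stood at 0.701 and Pxn at 0.544. Hml, at the low means of 162 in Mock and 2433 with Pc, stood at 15.0. Of 6 muscle genes 4 were listed (56688 in Mock to 175735 with Ph), and of 4 fat body and gut genes 0. The part of these differences in the results below was not tested.

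All 52 genes were matched to a current RefSeq symbol, and 47 lay at or above the median level of the table. Levels of different genes are compared here only as the Mock signal per kilobase of exon. Whether the authors had already divided by length is not given. On that scale the elongation factors had a median of 464908, the initiation factors 60418 and the synthetases 30412, against 8851 for the 7559 listed genes with a known exonic length. Synthetases that RefSeq marks as mitochondrial were the lowest class, with a median of 6129 over 6 genes. Ef1alpha48D, the main gene for eEF1A, was the highest of the 52 at 1865539, followed by Ef2b, which encodes eEF2, at 1204363 and eIF-5A at 1095201. The lowest was the second eEF1A gene, Ef1alpha100E, at 232. Of its means only that with Pc lay above 798.3, the smallest highest-group mean of any listed gene.

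Most of the 52 genes differed little among the 4 groups. The highest group mean exceeded the lowest by a median factor of 1.39, the factor stayed under 1.5 for 35 genes, and it reached at least 2 for 8. Mock held the lowest mean for 12 of the 24 initiation factors. The group labelled Sce held the highest mean for 15 of the 20 synthetases. The group labelled Pc, with 2 libraries against 6 of Mock, held the lowest for 11 of them. These counts were not made over all listed genes, so no share of the whole table stands beside them.

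**Figure D1:**
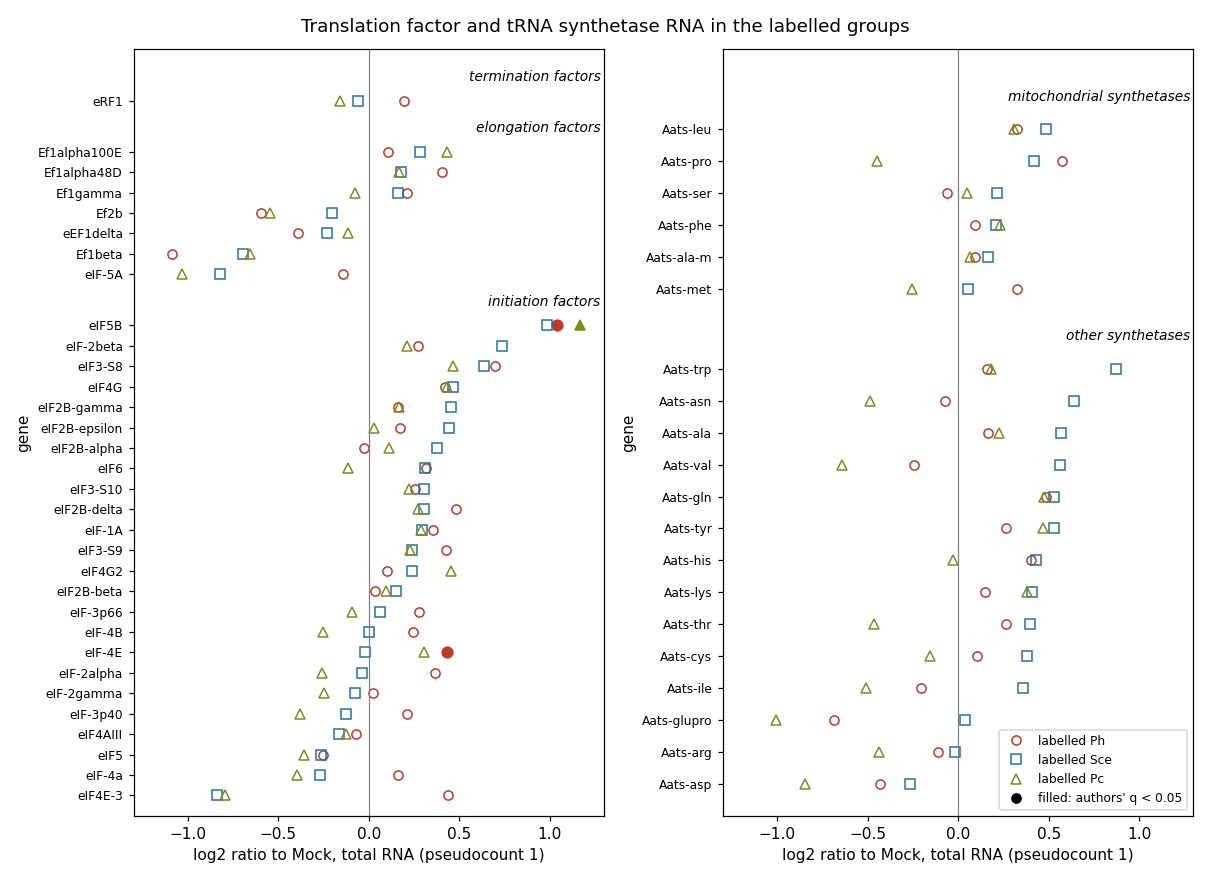
Log2 ratio of each labelled group's mean to the Mock mean in total RNA (x axis, pseudocount 1) for each of the 52 genes (y axis), ordered within each class by the ratio of the group labelled Sce. Circles are Ph, squares Sce and triangles Pc. The 3 filled symbols, for eIF5B with Ph and Pc and eIF-4E with Ph, are those with an authors' q-value under 0.05.

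Initiation factors were compared first. In the group labelled Ph, 2 of 24 rose and 0 fell by the q-values of the authors' deposited table, where 3.88% of all listed genes passed. In the group labelled Pc 1 of 24 passed, against 3.19% of all genes, and with Sce 0 of 24, against 0.249%. No further gene of the 52 passed, so the counts over all 52 were 2 (Ph), 0 (Sce) and 1 (Pc). As a share of the 52 this was close to the whole table with Ph and below it with Pc. The authors' deposited table, by its unadjusted p under 0.05, put 5 (Ph), 4 (Sce) and 2 (Pc) of the 24 higher and 0 lower. Over all 52 genes that threshold took 8, 11 and 4, beside 18.6%, 11.6% and 14.4% of all listed genes. At the unadjusted threshold the share among the 52 was thus below that of the whole table with Ph and Pc. It was above it with Sce, where none of the 11 passed after adjustment.

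eIF5B, the GTPase of subunit joining, had authors' means of 47185 in Mock, 96872 with Ph, 93228 with Sce and 105915 with Pc. All 3 treated groups were thus close to one another and about double Mock. It rose 2.05-fold with Ph (q = 0.029) and 2.24-fold with Pc (q = 0.037), and its ratio with Sce was 1.98 (p = 0.024, q = 0.236), by the q-values of the authors' deposited table. In nt.gene it rose with Ph at a ratio of 1.115 (q = 0.043), and its ratio with Sce, which did not pass, was 1.17 (p = 0.044, q = 0.391) in the authors' deposited table. The difference between the total RNA and nt.gene ratios could not be tested on these files. The exons of eIF5B cover 4410 bp, and no other gene of the annotation overlapped it.

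eIF-4E, the gene of the main cap-binding protein, had authors' means of 137673 in Mock, 185756 with Ph, 135702 with Sce and 170192 with Pc. Ph and Pc were above Mock, and Sce lay at the Mock level. It rose 1.35-fold with Ph (q = 0.03), while the ratio with Pc was 1.24 (q = 0.19) and that with Sce 0.986 (q = 0.591) in the authors' deposited table. Its nt.gene ratios of 1.41 (Ph, q = 0.381) and 1.248 (Sce, q = 0.648) in the authors' deposited table did not pass.

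The paralog eIF4E-3, known for its role in spermatogenesis, showed another order of means. They were 71833 in Mock, 97170 with Ph, 40153 with Sce and 41385 with Pc. The group labelled Ph stood highest and the other treated groups below Mock, a factor of 2.42 between highest and lowest, the widest of the 52 genes. None of its differences passed, with q-values of 0.403 (Ph), 0.414 (Sce) and 0.512 (Pc) in the authors' deposited table. The nt.gene ratios were 1.09 (Ph, q = 0.439) and 1.02 (Sce, q = 0.803) in the authors' deposited table.

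Further members of the eIF4 group were the helicase eIF-4a, the scaffold eIF4G, its testis paralog eIF4G2, the helicase cofactor eIF-4B and eIF4AIII, which acts in the exon junction complex rather than in initiation. eIF-4a had means of 951285 in Mock, 1063547 with Ph, 788940 with Sce and 721093 with Pc, and was the initiation factor with the highest signal per kilobase. eIF4G had a ratio to Mock between 1.34 and 1.38 in all 3 groups, and eIF4G2 between 1.07 and 1.37. Of the 7 genes of the group, 6 had a ratio above 1 with Ph, 2 with Sce (eIF-4B lay at 1.00) and 3 with Pc.

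The 5 eIF3 subunits with eIF symbols had ratios from 1.16 to 1.62 with Ph, and with those under other symbols 10 of 13 were above 1, from 0.773 to 1.62. The highest was eIF3-S8 (eIF3c), with means of 347327 in Mock, 562599 with Ph, 540063 with Sce and 479512 with Pc. Mock was the lowest of the 4 groups, as for eIF5B, but no comparison passed: q was 0.071 with Ph (p = 0.007), 0.198 with Sce (p = 0.007) and 0.269 with Pc in the authors' deposited table. eIF3-S10 and eIF3-S9 had ratios between 1.17 and 1.35 in the 3 groups. eIF-3p40 and eIF-3p66 were above Mock with Ph (1.16 and 1.21) and below it with Pc (0.769 and 0.937).

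None of the 3 eIF2 subunits passed in any group. eIF-2beta had means of 253573 in Mock, 305688 with Ph, 423038 with Sce and 293320 with Pc, the group labelled Sce standing apart from the rest. Its ratio with Sce of 1.67 did not pass (p = 0.031, q = 0.246 in the authors' deposited table), and its nt.gene ratio with Sce was 1.81 (q = 0.462 in the authors' deposited table). eIF-2alpha and eIF-2gamma had ratios with Sce of 0.974 and 0.948. Of the exons of eIF-2gamma 352 bp are shared with Su(var)3-9, so reads there may not be told apart.

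All 5 eIF2B subunits had a ratio above 1 with Sce (1.11 to 1.37) and with Pc (1.02 to 1.21), and 4 of 5 with Ph. eIF2B-delta reached 1.39 with Ph (q = 0.163 in the authors' deposited table). None of the 5 had a q-value under 0.163 in any group in total RNA, by the authors' deposited table. The lowest initiation factors with Ph were eIF5, the activator of eIF2 GTPase, at 0.837, eIF4AIII at 0.953 and eIF2B-alpha at 0.983. For eIF5 80.8% of the exonic length is shared with CG46312 on the same strand. As a class, the 24 initiation factors had median ratios of 1.20 (Ph), 1.18 (Sce) and 1.07 (Pc), beside 1.05, 1.04 and 1.03 for all listed genes. Relative to genes of like exonic length, the log2 median with Sce went from 0.24 to 0.069. Those with Ph and Pc went from 0.26 to 0.22 and from 0.10 to 0.083.

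**Figure D2:**
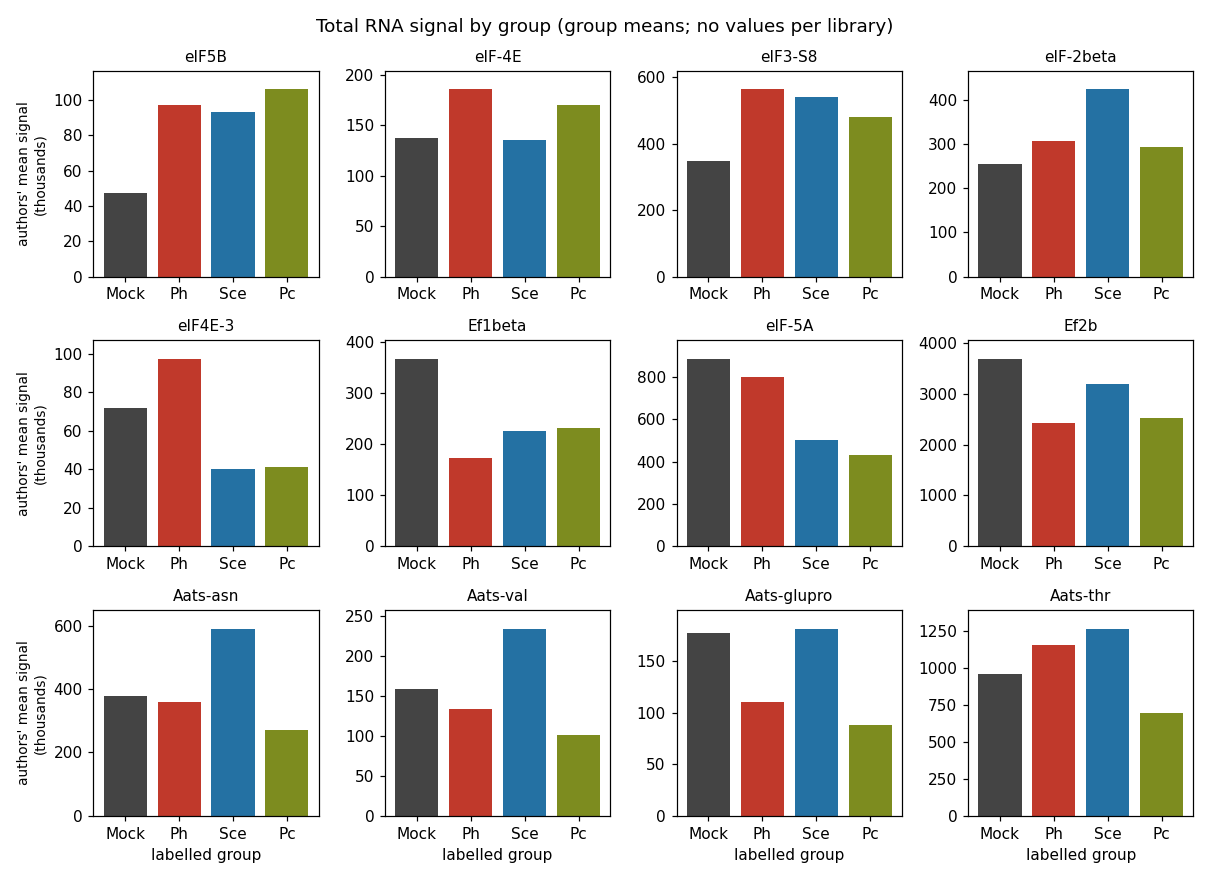
Authors' mean total RNA signal (y axis, scaled as labelled, each panel from 0) by labelled group (x axis) for 12 of the genes. eIF5B is about doubled in all 3 treated groups, Ef1beta and eIF-5A are highest in Mock, and Aats-asn, Aats-val, Aats-glupro and Aats-thr are highest with Sce and lowest with Pc.

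Elongation factors included the highest signals of the set, and none of the 7 passed, beside 3.88% (Ph), 0.249% (Sce) and 3.19% (Pc) of all listed genes. Of the 7 genes, 4 (Ph), 4 (Sce) and 5 (Pc) had a ratio below 1, beside 3376, 3438 and 3530 of the 7624 listed genes, and the lowest q-value of any was 0.06 in the authors' deposited table. That value belonged to Ef1beta, an exchange subunit of eEF1, with means of 365926 in Mock, 171907 with Ph, 225525 with Sce and 231634 with Pc. Every treated group lay below Mock, with ratios of 0.47 (p = 0.005, q = 0.06), 0.616 (p = 0.044, q = 0.255) and 0.633 (p = 0.059, q = 0.252) in the authors' deposited table. Its nt.gene ratios were 1.08 (q = 0.558) and 1.06 (q = 0.748) in the authors' deposited table, on the other side of 1.

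eIF-5A, which helps ribosomes past difficult peptide bonds, had means of 883827 in Mock, 800664 with Ph, 500484 with Sce and 432031 with Pc. Sce and Pc stood below both Mock and Ph. The ratios were 0.566 with Sce (p = 0.026, q = 0.237) and 0.489 with Pc (p = 0.033, q = 0.194) in the authors' deposited table, so neither passed. The nt.gene ratios were 0.739 (Ph, q = 0.515) and 0.702 (Sce, q = 0.623) in the authors' deposited table.

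Ef2b had means of 3680535 in Mock, 2430974 with Ph, 3194183 with Sce and 2520724 with Pc, and was lower in every treated group without passing (q of 0.263, 0.499 and 0.44 in the authors' deposited table). Ef1alpha48D went the other way, from 4596689 in Mock to 6086504 with Ph, 5191362 with Sce and 5150044 with Pc (q of 0.271, 0.504 and 0.595 in the authors' deposited table). The subunits Ef1gamma and eEF1delta had ratios between 0.762 and 1.16. With Ph, Ef1alpha48D stood at 1.32 of Mock and its exchange subunit Ef1beta at 0.47, a difference that was not tested.

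Ef1alpha100E had means between 615 in Mock and 831 with Pc, and nt.gene ratios of 0.327 (Ph, q = 0.293) and 0.313 (Sce, q = 0.462) in the authors' deposited table. It and Ef1alpha48D encode nearly the same protein, and whether reads were divided between the 2 genes was not tested. eRF1 had total RNA ratios of 1.14 (Ph), 0.961 (Sce) and 0.894 (Pc). Its nt.gene ratios were higher, at 1.715 (p = 0.041, q = 0.185) and 1.45 (p = 0.014, q = 0.296) in the authors' deposited table, and did not pass.

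The ribosomal protein genes, whose products the elongation factors work with, were set beside them. The 86 cytosolic ribosomal protein genes had median ratios of 0.582 (Ph), 0.755 (Sce) and 0.722 (Pc), and the 7 elongation factors 0.906, 0.868 and 0.923. In nt.gene the medians were 1.09 (Ph) and 1.1 (Sce) for ribosomal protein genes, and 1.08 and 1.03 for elongation factors. The 72 mitochondrial ribosomal protein genes had medians of 0.932, 0.984 and 0.938 in total RNA and of 1.168 (Ph) and 1.094 (Sce) in nt.gene. All 3 classes thus had medians below 1 in total RNA and above 1 in nt.gene. For elongation factors the log2 median with Ph in nt.gene turned from 0.11 to -0.16 when the gene EfSec was added by its current symbol, and that with Sce in total RNA moved from -0.20 to -0.0027 relative to genes of like exonic length. These differences between classes were not tested.

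Exonic length moved with the total RNA ratios. Over 7559 genes, which share the same libraries, Spearman's rho of length with the log2 ratio was 0.38 (Ph), 0.37 (Sce) and 0.31 (Pc) in total RNA, and 0.028 (Ph) and 0.069 (Sce) in nt.gene. Over the 52 genes it was 0.066 (Ph), 0.28 (Sce) and 0.18 (Pc). Ef1beta has 960 bp of exon, eEF1delta 928 bp and eIF-5A 807 bp, in the shortest quartile of listed genes, whose median log2 ratio was -0.32 (Ph), -0.23 (Sce) and -0.19 (Pc). eIF5B is in the longest quartile, with medians of 0.21, 0.25 and 0.25. The median exonic length of ribosomal protein genes was 921.5 bp. The part of length in these results was not tested.

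**Figure D3:**
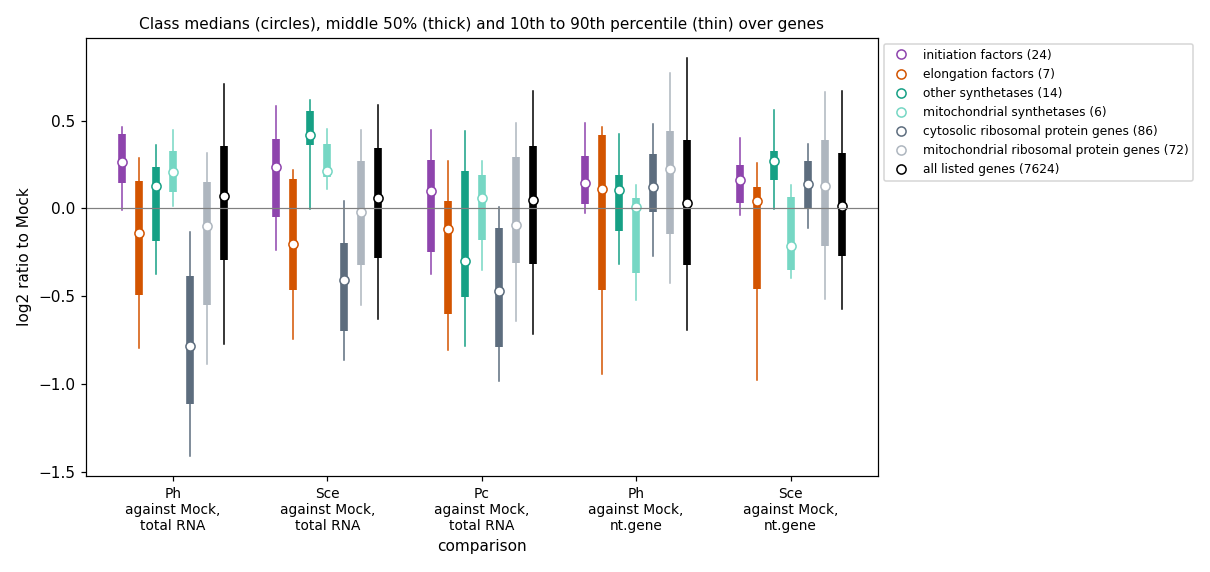
Log2 ratio to Mock (y axis) in each of 5 comparisons (x axis) for classes of genes. Circles are medians, thick bars the interquartile range and thin lines the 10th to 90th percentile. By their medians, cytosolic ribosomal protein genes lie lowest in total RNA and not in nt.gene, and synthetases not marked as mitochondrial lie highest with Sce in total RNA.

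Synthetases were compared in the same way. In total RNA 0 of 20 passed in any group, by the q-values of the authors' deposited table. Of all listed genes 3.88% (Ph), 0.249% (Sce) and 3.19% (Pc) did. With Sce, 18 of 20 had a ratio above 1, where 54.8% of all genes did, and the median ratio was 1.32 against 1.04 for all genes. With Ph 13 of 20 were above 1 (55.6% of all genes) and with Pc 9 of 20 (53.6%), with medians of 1.09 and 0.938. On the log2 scale, relative to genes of like exonic length, the median with Sce went from 0.40 to 0.23. In the same way that with Ph turned from 0.13 to -0.038 and that with Pc went from -0.092 to -0.23. With further genes by current symbol the median with Pc turned from -0.092 to 0.011. With Sce, the authors' deposited table put 5 of 20 higher and 0 lower at an unadjusted p under 0.05, beside 9.27% of all genes higher. These were Aats-cys, Aats-gln, Aats-leu, Aats-trp and Aats-tyr, with q-values from 0.195 to 0.246 in the authors' deposited table. All q-values of synthetases with Sce were at least 0.195 there, so the excess of higher ratios is a description of the means.

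Aats-trp had the highest ratio with Sce, 1.83 (p = 0.035, q = 0.246 in the authors' deposited table), with means of 50709 in Mock, 56529 with Ph, 92958 with Sce and 57446 with Pc. Sce alone stood above the rest. Aats-tyr had means of 58920 in Mock, 70711 with Ph, 85114 with Sce and 81588 with Pc, with q-values of 0.242, 0.195 (p = 0.004) and 0.115 (p = 0.011) in the authors' deposited table. Mock was the lowest group there, as it was for Aats-gln, whose ratios were 1.40 (Ph), 1.45 (Sce) and 1.39 (Pc). Aats-his reached 1.32 with Ph and Aats-lys 1.299 with Pc, while Aats-arg lay at 0.987 with Sce.

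Several synthetases with high signal stood apart between the groups labelled Sce and Pc instead. Aats-asn had means of 378059 in Mock, 359490 with Ph, 589605 with Sce and 269251 with Pc. Aats-val had 157943, 133428, 233483 and 101327 in the same order. Both were highest with Sce and lowest with Pc, and their q-values in total RNA were at least 0.33 in the authors' deposited table.

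Aats-thr, the synthetase with the highest signal per kilobase, had means of 958934 in Mock, 1150295 with Ph, 1262143 with Sce and 695063 with Pc. Aats-glupro, which carries the glutamyl and prolyl enzymes in a single protein, had 176779, 109772, 181103 and 87849. It had the lowest ratio of all synthetases with Ph (0.621, q = 0.274) and with Pc (0.497, q = 0.332) in the authors' deposited table. Aats-asp was next lowest with Ph (0.742) and Pc (0.556, p = 0.053, q = 0.242 in the authors' deposited table) and was below Mock with Sce too (0.83). Antisense RNA genes overlap 63.9% of the exonic length of Aats-asp and 16.6% of that of Aats-glupro, and the sources do not say if reads were counted by strand.

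Set against each other without Mock, the mean with Sce exceeded that with Pc for 19 of 20 synthetases, by a median factor of 1.36. It was at least 1.5 times as high for 7 of 20, where 7.06% of all listed genes reached that factor and the median over all genes was 1.01. Aats-val reached 2.30, Aats-asn 2.19 and Aats-glupro 2.06. Among initiation factors the median was 1.08 and 0 of 24 reached 1.5, and among elongation factors 1.01 and 0 of 7. The table holds no test of these 2 groups against each other, and the group labelled Pc has only 2 libraries.

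RefSeq marks 6 of the 20 as mitochondrial enzymes (Aats-ala-m, Aats-leu, Aats-met, Aats-phe, Aats-pro and Aats-ser). Their median factor of Sce over Pc was 1.13, against 1.47 for the other 14, all of which were above 1. Aats-pro was the exception among the 6, at 1.82, with the low means of 5586 in Mock, 8301 with Ph, 7460 with Sce and 4093 with Pc. It also had the highest synthetase ratio with Ph, 1.49 (p = 0.03, q = 0.126 in the authors' deposited table). For alanine and proline both enzymes are among the 20, and the pairs differed in direction with Sce. Aats-ala stood at 1.48 of Mock and Aats-ala-m at 1.12, but Aats-glupro stood at 1.02 and Aats-pro at 1.34. The difference between these kinds of synthetase was not tested.

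Older symbols had kept further genes out, and current RefSeq symbols named 28 of them, chosen after the data were seen. They included 14 synthetases, 5 of them not marked as mitochondrial. The latter had Sce over Pc factors of 1.79 (CG15100, MetRS), 1.69 (CG33123, LeuRS), 1.54 (CG17259, SerRS), 1.12 (CG2263, alpha-PheRS) and 0.975 (CG5706, beta-PheRS). The 9 mitochondrial ones ran from 0.897 to 1.22. Together, 9 of 19 synthetases not marked as mitochondrial and 1 of 15 mitochondrial ones reached 1.5.

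CG5706, the beta subunit of the phenylalanyl enzyme, was the only one of the 28 that passed in total RNA. It passed with Ph, where 3.88% of all listed genes did, so 1 of 28 was near the share of the whole table. Its means were 33999 in Mock, 58700 with Ph, 50334 with Sce and 51638 with Pc, all treated groups above Mock, and by the authors' deposited table it rose 1.73-fold with Ph (q = 0.034). The alpha subunit CG2263 had a total RNA ratio of 1.08 with Ph, and by the authors' deposited table its nt.gene signal rose 1.51-fold (q = 0.044). Among 13 further initiation factors the lowest ratio with Ph was that of eIF1 (CG17737), at 0.508 (q = 0.224 in the authors' deposited table), whose exons cover 681 bp.

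**Figure D4:**
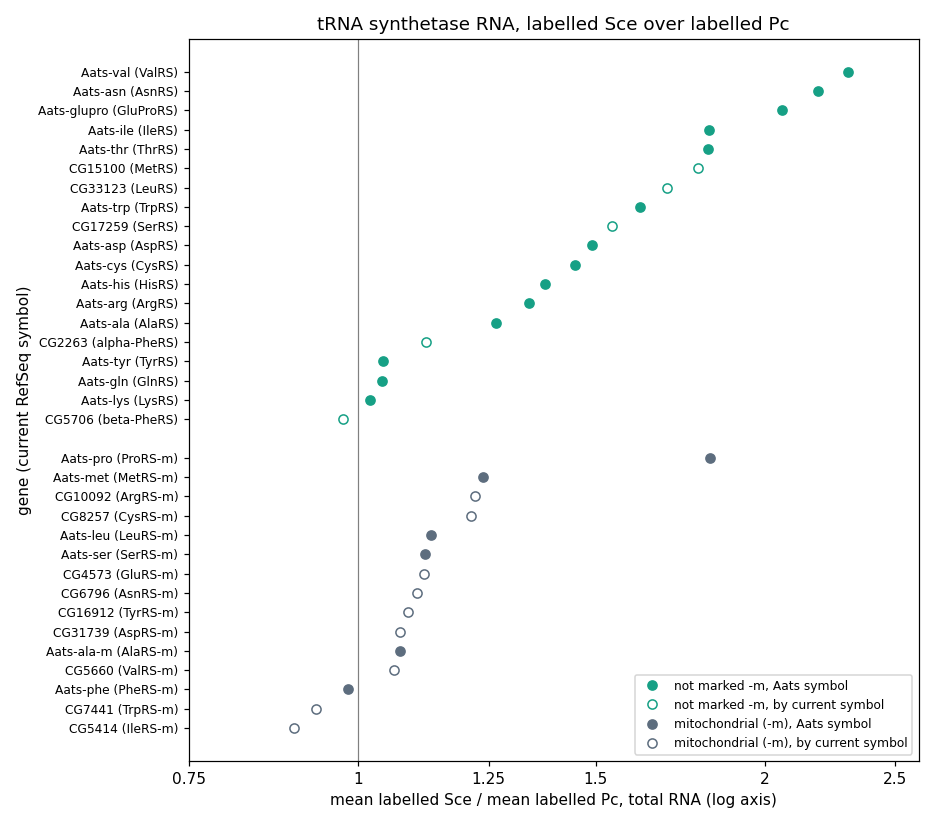
Mean total RNA signal of the group labelled Sce divided by that of the group labelled Pc (x axis, log scale) for tRNA synthetase genes (y axis), in separate blocks for mitochondrial and other enzymes. Filled points are the 20 genes with Aats symbols and open points the 14 further genes by current symbol. Genes not marked as mitochondrial reach 2.30, while mitochondrial ones other than Aats-pro stay at or under 1.24.

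The nt.gene ratios of the 52 genes were compared next. With Ph, 1 of 52 passed, eIF5B as given above, where 2.48% of all genes did, and with Sce 0 of 52, where 0.118% did, in the authors' deposited table. In the authors' deposited table an unadjusted p under 0.05 belonged to 5 (Ph) and 3 (Sce) genes, all higher, beside 16.5% and 9.9% of all genes. Ratios above 1 were held by 35 of 52 genes with Ph (52.4% of all genes) and by 38 of 52 with Sce (51.4%).

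The highest nt.gene ratio with Ph was that of eIF-4B, at 1.895 (p = 0.039, q = 0.181 in the authors' deposited table), whose total RNA ratio was 1.19. With Sce it was Aats-asn, at 1.83 (p = 0.065, q = 0.443 in the authors' deposited table), a gene with 1.56 in total RNA. Aats-asp had an nt.gene ratio with Sce of 1.34 (p = 0.009, q = 0.263 in the authors' deposited table) and 0.83 in total RNA. Of the 14 synthetases not marked as mitochondrial, 12 had an nt.gene ratio above 1 with Sce (median 1.21 in the authors' deposited table), and of the 6 mitochondrial ones 2 (median 0.863).

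Total RNA and nt.gene ratios lay on the same side of 1 in part. With Ph, 27 of 52 genes were above 1 in both and 8 in nt.gene alone, 11 in total RNA alone and 6 in neither. With Sce these counts were 27, 11, 9 and 5. Of all 7624 listed genes, 2586 (Ph) and 2506 (Sce) were above 1 in both. For the synthetases with Sce, 13 of 20 were above 1 in both. There was no nt.gene comparison for Pc among the columns used here.

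**Figure D5:**
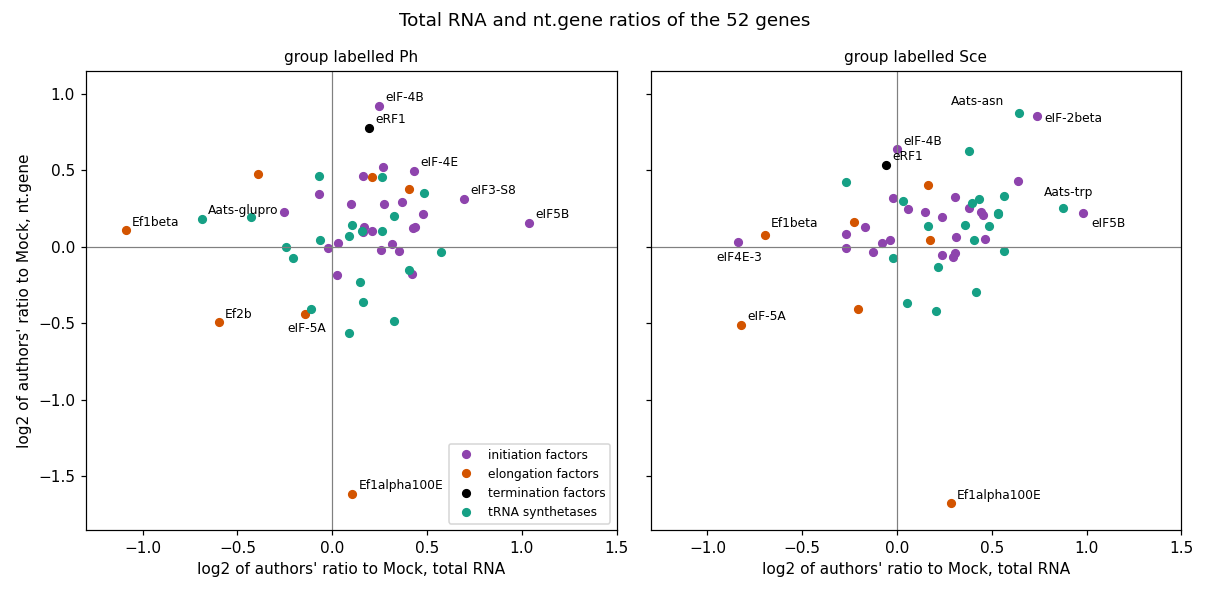
Log2 of the authors' ratio to Mock in total RNA (x axis) and in nt.gene (y axis) for the 52 genes in the groups labelled Ph and Sce, coloured by class. eIF5B lies far to the right and little above 0 on the y axis, Ef1beta far to the left with nt.gene ratios of 1.08 and 1.06, and Ef1alpha100E lowest in nt.gene.

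Genes that regulate these factors were taken from fixed lists. Of 17 regulators of initiation 16 were listed under the fixed symbols, mxt under an older one, and 0 passed in total RNA, by the authors' deposited table. At most 3.88% of all listed genes passed there in any group. Thor, the 4E-BP that blocks eIF4E, had means of 11321 in Mock, 3384 with Ph, 34801 with Sce and 2959 with Pc. Sce stood above Mock and Ph and Pc below it, an 11.8-fold factor between Sce and Pc, but q was 0.203 (Ph), 0.329 (Sce) and 0.355 (Pc) in the authors' deposited table. The nt.gene ratios of Thor were 1.46 (Ph, q = 0.308) and 3.35 (Sce, q = 0.448) in the authors' deposited table. By the authors' deposited table mxt stood at 1.448 with Ph (q = 0.065). Next to Thor, the highest and lowest ratios with Ph were those of tral (1.51) and bel (1.48), which act on mRNA repression and unwinding, and of orb2 (0.688).

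Of 17 genes of insulin and TOR signalling, which sets the rate of translation, 16 were listed under the fixed symbols and REPTOR under an older one, whose total RNA ratios from 1.099 to 1.593 did not pass. With Ph 1 of the 16 rose, beside 3.88% of all genes, S6kII (1.73-fold, q = 0.019 in the authors' deposited table), which encodes the RSK kinase, a neighbour of this pathway. With Pc 3 of the 16 rose, beside 3.19% of all genes, S6kII (1.65-fold, q = 0.007), the insulin receptor InR (1.92-fold, q = 0.038) and the TOR inhibitor Tsc1 (1.56-fold, q = 0.025) in the authors' deposited table. Singled out after its values were seen, the amino acid transporter slif had the highest ratio of the list with Pc (3.194, q = 0.118 in the authors' deposited table), at means of 518 in Mock and 1654 with Pc. With Sce 0 of 16 passed, and InR and Tsc1 had ratios of 1.82 (q = 0.197) and 1.40 (q = 0.198) in the authors' deposited table.

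Of 6 genes of the amino acid response, in which ATF4 (crc) raises synthetases and Thor, 5 were listed under the fixed symbols and AsnS under an older one. In total RNA 0 passed in the authors' deposited table, beside at most 3.88% of all listed genes in any group. AsnS, asparagine synthetase, had means of 54594 in Mock, 41764 with Ph, 69841 with Sce and 35326 with Pc, highest with Sce and lowest with Pc. crc itself had ratios of 0.85 (Ph), 0.954 (Sce) and 0.904 (Pc). Nmdmc, a mitochondrial folate enzyme, had means of 50797 in Mock, 53178 with Ph, 78776 with Sce and 48158 with Pc, with Sce the highest. Its nt.gene signal rose 1.96-fold with Ph (q = 0.000 at 3 decimals), and the ratio with Sce was 1.77 (p = 0.002, q = 0.137) in the authors' deposited table. By the authors' deposited table ImpL3, lactate dehydrogenase, rose 4.44-fold in nt.gene with Ph (q = 0.041), while its total RNA ratio was 1.07.

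The remaining lists were small, and at most 3.88% of all listed genes passed in any total RNA comparison. Int6 (eIF3e), Trip1 (eIF3i) and Adam (eIF3j), factor subunits under other names, did not pass in total RNA, and Trip1 had ratios of 0.773 (Ph), 0.64 (Sce) and 0.608 (Pc). Among genes of ribosome rescue and recycling, pelo, HBS1 and pix did not pass, with ratios from 0.976 to 1.21. Of the mitochondrial translation factors, ico and EfTuM were listed under the fixed symbols and 5 others under older ones, and none passed in total RNA. ico stood at 1.58 with Ph (q = 0.092) and EfTuM at 0.407 with Sce (q = 0.249) in the authors' deposited table. EfTuM had the low means of 1395 in Mock and 568 with Sce. mIF3, the mitochondrial initiation factor listed as CG13163, had means of 12603 in Mock, 27397 with Ph, 12906 with Sce and 11718 with Pc, with Ph alone apart (q = 0.056 in the authors' deposited table). The tRNA modification genes Elp3 and Mt2 had ratios from 0.764 to 1.253 and did not pass.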

How the data were processed

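The data were total RNA libraries of BG3 cells, with ribosomal RNA removed and, per the labels' protocols, prepared by the Ion Total RNA-seq method. Per the file headers, the authors deposited mean signals per group, ratios against Mock, and p-values and q-values to 3 decimals. The submitters' processing notes name bedtools. For aligner, build, annotation, normalization and test, the sources used here give nothing. The sums of the deposited signal columns differed by at most 0.021%. Every deposited total RNA ratio equalled the quotient of means within 2% or 0.001, and the nt.gene ratios were not checked in this way. No labelled sample matched the 3 columns of nt.gene means, which were left out; the deposited nt.gene ratios were kept.

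No test was computed here, since 0 columns held values per library; limma had been planned had there been any. Log2 ratios used a pseudocount of 1 in total RNA and none in nt.gene, and scripts were tested on simulated data (Python 3.11.15, pandas 2.3.3). Symbols were matched through RefSeq (7559 of 7624 genes), and exonic lengths came from Ensembl release 115, used for names, lengths and overlaps only. Members and lists were chosen with earlier results of these data known. Genes named were those that passed, the highest 4 in Mock, the 3 highest and lowest ratios per class and comparison, and paralogs. List symbols absent from the table were looked up by current RefSeq symbol after the data were seen. Genes named by current symbol, and those singled out between Sce and Pc or in nt.gene, were chosen after their values were seen. A result of the signalling list is not reported here. Alternatives were other call rules, pseudocount, centring, level, length quartile and wider membership.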

Additional observations from a re-analysis of the deposited data

How the results depend on the processing

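Of 104 alternative values 82 stayed within 1.5 times the count or within 0.1 of the log2 median. The other 22 follow. At an unadjusted p under 0.05, the numbers of the 52 genes called were 8 (Ph), 11 (Sce) and 4 (Pc) in total RNA and 5 (Ph) and 3 (Sce) in nt.gene, against 2, 0, 1, 1 and 0; at q under 0.1 there were 4 with Ph in total RNA, and with further genes by current symbol 2 with Ph in nt.gene. Benjamini-Hochberg adjustment of the authors' rounded p-values changed no count by more than that factor. Divided by the median of the length quartile, an alternative chosen after seeing the data, log2 medians in total RNA became 0.069 (initiation, Sce), -0.0027 (elongation, Sce), -0.038 (synthetases, Ph), 0.23 (synthetases, Sce) and -0.23 (synthetases, Pc), from 0.24, -0.20, 0.13, 0.40 and -0.092. Among genes at or above the median level, elongation medians were -0.27 (Ph) and -0.33 (Pc) in total RNA and 0.24 (Ph) in nt.gene, from -0.14, -0.12 and 0.11. With further genes by current symbol, also chosen after seeing the data, they were -0.022 (elongation, Sce), 0.011 (synthetases, Pc) and, in nt.gene, -0.16 (elongation, Ph), the latter 2 changing sign. Synthetases not marked as mitochondrial had a median of -0.30 with Pc; mitochondrial ones had 0.21 (Sce) and 0.057 (Pc) in total RNA and -0.21 (Sce) in nt.gene. Beyond the construction of each alternative, the cause was not tested. No paired analysis was possible because the columns hold group means and carry no replicate numbers, and no replicate could be left out. The depth of the libraries is unknown.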
